A study of Homo sapiens with 36 samples.

Results

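PTGES and 6 further genes of the prostaglandin pathway, PTGES2, PTGES3, PTGS2, PTGR1, PTGR2 and PTGDR2, were followed through every library of a polysome profiling experiment. The 7 genes were taken by symbol from 26485 symbols in the count tables, of which 21325 had a count in at least 1 library. PTGES was picked because its level was low in total RNA of 1 line, so that difference is described here and not tested. All 7 genes passed the filter on low counts in total RNA and in the low-translating fraction, and 6 of 7 passed in the high-translating fraction, where PTGS2 was too low to be tested.

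The cells were MDA-MB-231 cells, an established line of triple-negative breast cancer, grown in dishes and exposed to cycloheximide at 100 ug/mL for 5 minutes, which holds ribosomes on mRNA. The labels name the source of every library as a xenograft cell line while their growth protocol describes culture dishes, and nothing in them speaks of a host animal. All 4 lines carried a CRISPR interference construct and an overexpression construct. The line called UAU had eGFP as the CRISPR interference target and overexpressed tRNAIleUAU, the isoleucine tRNA with the anticodon UAU. The GAUi line had Ile GAU, the isoleucine tRNA with the anticodon GAU, as its CRISPR interference target, together with the Control construct. The isoswitch line combined interference with Ile GAU and overexpression of tRNAIleUAU, and the control line had eGFP as target and the Control construct. Total RNA was sequenced from each line, as were a low-translating fraction, labelled as 80S with the 1st polysome peak, and a high-translating fraction, labelled as more than 2 polys. Each of these 12 groups had replicates A, B and C, for 36 libraries. The labels do not say whether the replicates were separate cultures or whether a line was 1 clone, so the p-values reflect the spread among these particular samples, which may be technical.

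Prostaglandins are lipid signals made from arachidonate, which phospholipases and the hydrolysis of endocannabinoids release. The cyclooxygenases PTGS1 and PTGS2 turn it into PGH2, and terminal synthases turn PGH2 into PGE2, PGD2, PGF2α or thromboxane. PTGES is the inducible microsomal PGE2 synthase, often regulated together with PTGS2. PGE2 is inactivated by the dehydrogenase HPGD and then by reductases such as PTGR1 and PTGR2, and it is known in breast cancer as a mediator of invasion and immune escape.

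The promoters of PTGES and PTGS2 are shown because these enzymes act in sequence in PGE2 synthesis and are often induced together, while their promoters differ in the motifs searched. They were taken from RefSeq (GRCh38.p14), 250 bases before to 50 bases after the start, and 6 of the 7 genes had an entry. The PTGES window lies at chr9:129752993-129753292 and the PTGS2 window at chr1:186680374-186680673, both on the minus strand and both printed 5′ to 3′ along the gene. Capitals mark matches, on either strand, to GCGTGGGCG (the EGR1 site), GGGCGG (the GC box) and TATAAA (the TATA box).
PTGES: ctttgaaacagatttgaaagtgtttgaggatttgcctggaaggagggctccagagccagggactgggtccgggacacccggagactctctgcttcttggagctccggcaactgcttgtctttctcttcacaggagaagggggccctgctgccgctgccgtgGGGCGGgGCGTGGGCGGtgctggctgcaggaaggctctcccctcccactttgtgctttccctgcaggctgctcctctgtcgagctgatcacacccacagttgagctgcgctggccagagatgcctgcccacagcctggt
PTGS2: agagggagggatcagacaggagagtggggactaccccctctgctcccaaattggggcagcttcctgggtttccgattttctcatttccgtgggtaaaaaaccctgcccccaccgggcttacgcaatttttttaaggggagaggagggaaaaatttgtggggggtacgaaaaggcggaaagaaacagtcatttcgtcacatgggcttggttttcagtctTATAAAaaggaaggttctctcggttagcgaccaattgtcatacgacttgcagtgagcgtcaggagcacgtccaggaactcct

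The PTGES window held 2 GC boxes and 1 EGR1 site, which overlaps the second GC box, and it held no TATA box by these letters. The PTGS2 window held 1 TATA box and neither of the other motifs. Of 35116 promoters of the same length, 0.795% held the EGR1 site, 45% a GC box and 11.5% a TATA box. Among the other genes with an entry, PTGES2 held an EGR1 site at 1 of its 3 start sites, and every listed gene but PTGS2 held at least 1 GC box. A match is a description of letters, and no factor was measured.

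Library totals ran from 6679340 to 8973050 counts in total RNA, from 5310594 to 8234332 in the low fraction and from 5192464 to 8974001 in the high fraction. CPM here means counts scaled by an adjusted total. This is the library's sum over the genes that passed the low-count filter, times a TMM factor fitted over all 36 libraries. These factors, from a scaling that takes most genes as unchanged, ran from 0.9067 to 1.0859. A level is thus a share of that adjusted total, not of the library itself. A higher level in a fraction does not mean more molecules. Between fractions of control cells, 51.5% to 66.0% of all genes were called, so levels compared between fractions depend on this scaling. No molecular identifiers were used in the counting, so intervals and floors from counts cover counting error only. Summed markers of mesenchymal-like breast cancer cells (VIM, CD44, AXL, SPARC, TGFBI and MSN) came to 3798 to 4790 CPM in total RNA, with SPARC between 0 and 0.958 CPM there. Markers expected to be low (ESR1, PGR, CDH1, EPCAM, GATA3 and FOXA1) summed to 27.4 to 39.2 CPM in total RNA, nearly all EPCAM and GATA3, while ESR1, the estrogen receptor, reached at most 0.149 CPM. Fibroblast, leukocyte and endothelial markers summed to at most 5.65, 10.5 and 4.94 CPM, with DCN, CD3E, CDH5 and CLDN5 at 0, in total RNA as well. Most of these sums came from COL1A1 (0.958 to 4.67 CPM), CD68 (4.42 to 9.04 CPM) and PECAM1 (1.78 to 4.52 CPM), in that order. GAUi replicate A of total RNA and control replicate B of the low fraction stood apart from the other libraries of their groups, so the PTGES results that rest on them, and those of PTGDR2 in total RNA, are also given without them.

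In total RNA, PTGES was lowest in UAU cells and highest in control cells, with GAUi and isoswitch cells between. The UAU libraries A, B and C had 32.6, 30.5 and 28.2 CPM, and the GAUi libraries had 66.1, 43.5 and 45.1 CPM. The isoswitch libraries had 43.3, 49.6 and 42.4 CPM, against 63.3, 63.8 and 71.2 CPM in control. Every UAU library lay below every other library, every isoswitch library lay below every control library, and GAUi replicate A alone among the 3 GAUi libraries lay within the control range. In these bulk samples, fewer cells that express PTGES and less PTGES mRNA per cell cannot be told apart.

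As group means, PTGES stood at 30.4 ± 2.19 CPM in UAU, 51.6 ± 12.6 CPM in GAUi, 45.1 ± 3.94 CPM in isoswitch and 66.1 ± 4.44 CPM in control (SD, n = 3 each). The UAU to control difference, on which PTGES was picked, was -1.10 on the log2 scale, a mean of 0.46 times the control mean. The other total RNA differences that share a library with it are given in the same way, with no test. The log2 differences from control were -0.37 in GAUi cells, or -0.60 without GAUi replicate A, and -0.55 in isoswitch cells, and isoswitch cells differed from UAU cells by 0.54. The comparison of isoswitch with GAUi cells, which asks what tRNAIleUAU does where Ile GAU is targeted, shares no library with the UAU to control difference and was tested. PTGES did not pass there (log2 fold change -0.18, SE 0.13, adjusted p = 0.604, edgeR), with a log2 fold change of 0.04 without GAUi replicate A. GAUi and isoswitch, neighbours in the order of the levels, therefore did not differ beyond their spread.

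**Figure D1:**
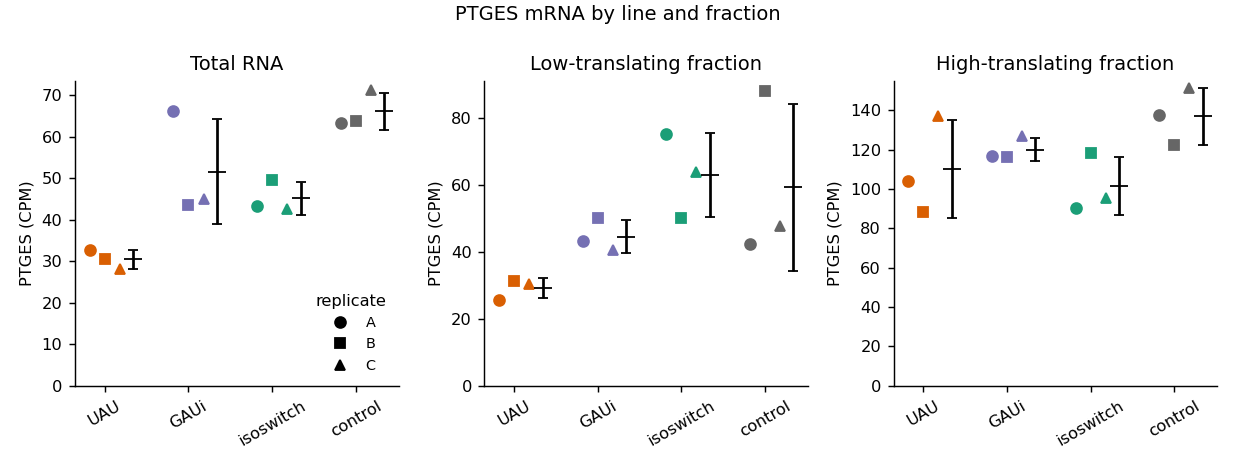
PTGES level in CPM (vertical axes, starting at 0 and scaled separately) in each library of the UAU, GAUi, isoswitch and control lines (horizontal axes), in total RNA, the low-translating and the high-translating fraction. Circles, squares and triangles are replicates A, B and C, and bars give the mean ± SD. The UAU libraries lie lowest in total RNA and in the low fraction, and in the high fraction the means were 110 in UAU, 120 in GAUi, 102 in isoswitch and 137 CPM in control.

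In the low-translating fraction, PTGES was again lowest in UAU cells. The UAU libraries A, B and C had 25.8, 31.4 and 30.6 CPM, and the GAUi libraries had 43.2, 50.1 and 40.6 CPM. The isoswitch libraries had 75.2, 50.2 and 63.8 CPM, against 42.3, 88.1 and 47.7 CPM in control. No UAU library reached the lowest library of another line, while control replicate B lay far above the other control libraries and above all isoswitch libraries.

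Relative to control, PTGES fell in UAU cells in this fraction (log2 difference -1.02, SE 0.21, adjusted p = 0.0343, edgeR), and all 3 UAU libraries lay below all 3 control libraries. PTGES was the only 1 of 7 genes called there, where 0.691% of all genes tested were called. Nothing is read from that count, because the low fraction came from the same lines on which PTGES was picked. The p-value carries the same choice. Without control replicate B the difference was -0.63 (adjusted p = 0.0302, edgeR). The call was lost on leaving out any UAU or any GAUi library or isoswitch replicate A or C, with adjusted p between 0.0506 and 0.120, and in a fit on the UAU and control libraries alone (-1.02, adjusted p = 0.251, edgeR).

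PTGES rose in isoswitch relative to UAU cells (log2 difference 1.11, SE 0.20, adjusted p = 0.00411, edgeR), with no overlap between the groups. It was the only 1 of 7 genes called, against 4.25% of all genes. Nothing is read from this count either, since PTGES was picked for its low level in the UAU line. The p-value carries that choice too. The isoswitch to GAUi difference was 0.50 (SE 0.20, adjusted p = 0.615, edgeR), and it passed without the filter on low counts (0.50, adjusted p = 0.0392, edgeR) and in a fit on those lines alone (0.50, adjusted p = 0.0406, edgeR). With the filter and all 4 lines in the fit, none of the 7 genes passed in that comparison by edgeR or DESeq2, 3 had an unadjusted p under 0.05, and 0.00% of all genes were called, with 890 at an unadjusted p under 0.05 and 44 called by DESeq2.

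PTGES did not pass in GAUi cells (-0.41, SE 0.20, adjusted p = 0.299, edgeR) or in isoswitch cells (0.09, SE 0.20, adjusted p = 0.885, edgeR) relative to control. The GAUi difference passed without the filter on low counts (-0.40, adjusted p = 0.0412, edgeR). Without control replicate B these differences were -0.02 in GAUi and 0.48 in isoswitch cells, and the isoswitch difference then passed (adjusted p = 0.0456, edgeR). With the filter and all libraries, none of the 7 genes was called in either comparison by edgeR or DESeq2, with 1 at an unadjusted p under 0.05 in GAUi and 0 in isoswitch cells. Over all genes, 3.40% were called in GAUi cells and 2.58% in isoswitch cells.

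For PTGES, the effect of tRNAIleUAU in the low fraction differed with the CRISPR interference target in the main fit. This interaction, the isoswitch minus GAUi difference less the UAU minus control difference, was 1.51 on the log2 scale for PTGES (SE 0.29, adjusted p = 0.0364, edgeR). PTGES was the only 1 of 7 genes called, where 0.233% of all genes were called. That count too holds the lines on which PTGES was picked, and nothing is read from it. The p-value rests on the same lines. Without control replicate B the interaction was 1.13 (adjusted p = 0.00376, edgeR). The call was lost on leaving out UAU replicate B or C, any GAUi library, or isoswitch replicate A or C, with adjusted p between 0.054 and 0.164. In total RNA, which holds the libraries that picked PTGES, the same quantity was 0.92, or 1.14 without GAUi replicate A, given without a test.

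On heavy polysomes the mean PTGES levels of the 4 lines ran between 102 and 137 CPM. The UAU libraries A, B and C of the high-translating fraction had 104, 88.6 and 137 CPM of PTGES, and the GAUi libraries had 117, 117 and 127 CPM. The isoswitch libraries had 90.6, 118 and 95.5 CPM, against 137, 122 and 151 CPM in control. The isoswitch libraries all lay below the control libraries, whereas UAU replicate C lay within the control range and apart from UAU replicates A and B.

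On these heavy polysomes PTGES fell in isoswitch relative to control cells (log2 difference -0.44, SE 0.12, adjusted p = 0.0162, edgeR), lower in 3 of 3 isoswitch libraries. It was the only 1 of 6 tested genes called, against 11% of all genes. Nothing is read from this count, because the control line was among those on which PTGES was picked. The p-value shares that limit. The call was lost on leaving out control replicate A or C or isoswitch replicate A or C, with adjusted p between 0.0612 and 0.115. The UAU difference did not pass (-0.30, SE 0.12, adjusted p = 0.0614, edgeR), and was -0.49 (adjusted p = 0.000861, edgeR) without UAU replicate C. It also passed without control replicate B (-0.37, adjusted p = 0.0435, edgeR) and without isoswitch replicate B (-0.30, adjusted p = 0.0486, edgeR).

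The GAUi difference from control was -0.19 in the high fraction (SE 0.12, adjusted p = 0.341, edgeR). Of 6 tested genes 0 were called in GAUi cells by edgeR or DESeq2 and 0 had an unadjusted p under 0.05, where 10.1% of all genes were called. Isoswitch differed from GAUi cells by -0.25 (SE 0.12, adjusted p = 0.16, edgeR), and by -0.38 (adjusted p = 0.0442, edgeR) without isoswitch replicate B. None of the 6 genes was called there by edgeR or DESeq2 and 2 had an unadjusted p under 0.05, against 15.8% of all genes called. Isoswitch and UAU cells differed by -0.14 (SE 0.12, adjusted p = 0.364, edgeR), and the interaction was 0.04 (SE 0.17, adjusted p = 0.871, edgeR).

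PTGES was higher in the high than in the low fraction of control cells. Its mean was 137 ± 14.5 CPM in the high fraction, against 59.4 ± 25 CPM in the low fraction and 66.1 ± 4.44 CPM in total RNA (SD, n = 3 each), and every high-fraction library lay above every other. The high to low difference was 1.18 (SE 0.19, adjusted p = 6.52e-05, edgeR), and 1.56 (adjusted p = 2.77e-14, edgeR) without control replicate B of the low fraction. The control libraries of total RNA are among those that picked PTGES, so the differences from them are given with no test. The high to total difference was 1.03 on the log2 scale, and the low to total difference was -0.16, or -0.52 without control replicate B of the low fraction.

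The mean PTGES level in the high fraction was 3.62 times the mean in total RNA in UAU cells, 2.33 times in GAUi cells, 2.25 times in isoswitch cells and 2.07 times in control cells. Set against the same difference in control cells, the high minus total difference was higher by 0.83 in UAU cells, by 0.18 in GAUi cells (0.41 without GAUi replicate A of total RNA) and by 0.13 in isoswitch cells on the log2 scale. These 3 values use total RNA libraries that picked PTGES and are given without a test. With the low fraction in place of total RNA, which uses none of those libraries, the UAU value was 0.73 and did not pass (adjusted p = 0.0884, edgeR). These low-fraction libraries still came from the same lines on which PTGES was picked. By the same measure the GAUi value was 0.23 (adjusted p = 0.792, edgeR) and the isoswitch value -0.51 (adjusted p = 0.405, edgeR). Leaving out control replicate B of the low fraction as well, a setting chosen after the data were seen, the values were 0.33 in UAU cells (adjusted p = 0.38, edgeR), -0.17 in GAUi cells (adjusted p = 0.755, edgeR) and -0.91 in isoswitch cells, where it then passed (adjusted p = 0.0111, edgeR). So the isoswitch value changed sign with the fraction set against the high one, and the GAUi value changed sign without that library.

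Of the 7 genes, PTGES was the only 1 called for this high minus total difference in UAU cells, beside 7.32% of all genes, and nothing is read from that count because the total RNA libraries chose it. None was called in GAUi or isoswitch cells by edgeR or DESeq2, with 1 and 0 at an unadjusted p under 0.05. Over all genes, 0.718% were called in GAUi cells and 0.00% in isoswitch cells, where 648 had an unadjusted p under 0.05 and 0 were called by DESeq2. PTGDR2 came nearest in UAU cells (-0.50, SE 0.18, adjusted p = 0.0849, edgeR), and passed without UAU replicate C of the high fraction (-0.71, adjusted p = 0.00939, edgeR). Its counts cannot be told apart from those of the overlapping gene CCDC86.

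The other PGE2 synthases passed in no comparison between lines. PTGES2, a membrane-associated synthase also known to bind heme, had 32.7, 31.5 and 30.4 CPM in UAU total RNA, against 26.7, 32 and 30.5 CPM in control. The groups overlapped, and the log2 fold change was 0.11 (SE 0.13, adjusted p = 0.797, edgeR). Over all 18 line comparisons and interactions PTGES2 was called in 0, by edgeR and by DESeq2, and had an unadjusted p under 0.05 in 0, with log2 fold changes from -0.26 to 0.11.

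PTGES3, the cytosolic synthase better known as p23, a co-chaperone of HSP90, had 482, 510 and 491 CPM in UAU total RNA, against 496, 488 and 497 CPM in control. Its GAUi libraries, at 556, 538 and 536 CPM, all lay above the control libraries, yet the difference was small and did not pass (0.12, SE 0.07, adjusted p = 0.27, edgeR). PTGES3 was called in 0 of 18 line comparisons and interactions, by edgeR and by DESeq2, and had an unadjusted p under 0.05 in 3, with log2 fold changes from -0.13 to 0.33. RefSeq lists 5 processed copies named PTGES3P, of which 0 are among the files' symbols, so reads that fit a copy as well as the gene are uncertain.

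**Figure D2:**
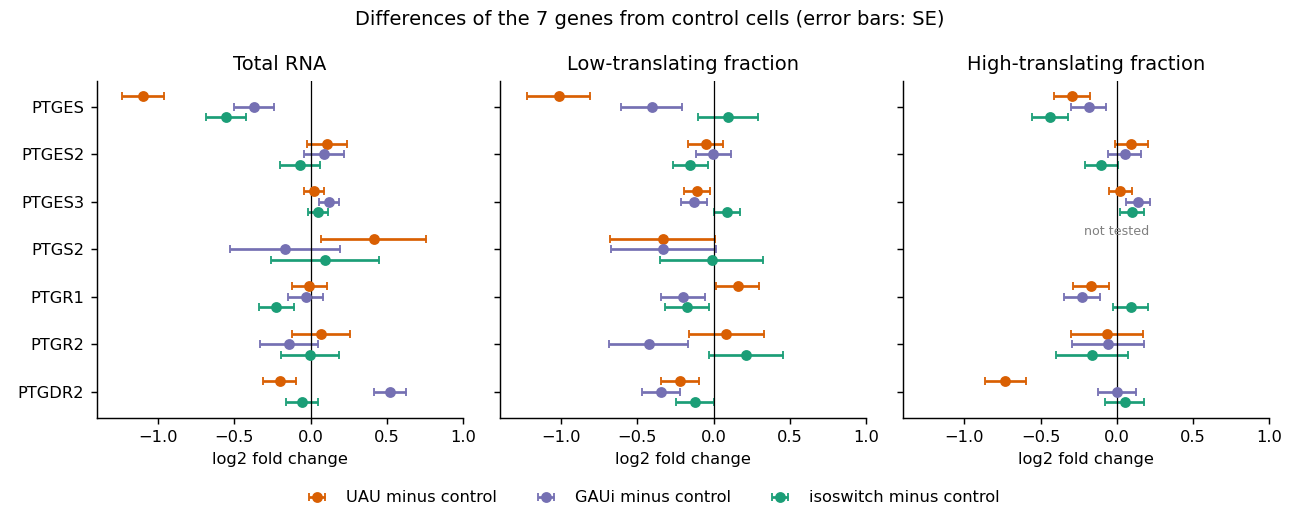
Log2 fold changes (horizontal axes, error bars SE) of the 7 genes (rows) in the UAU, GAUi and isoswitch lines, each minus control, in total RNA, the low-translating and the high-translating fraction. PTGES lies left of 0 in all 3 lines in total RNA and the high fraction, PTGDR2 lies right of 0 in GAUi total RNA (0.52) and left of 0 in the UAU high fraction (-0.73), and PTGS2 was not tested in the high fraction. The counts of PTGDR2 cannot be told apart from those of the overlapping gene CCDC86.

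PTGS2, the inducible cyclooxygenase, was near the limit of these libraries. It had 16, 24 and 35 counts in UAU total RNA and 22, 9 and 23 counts in GAUi total RNA. Isoswitch total RNA had 17, 21 and 24 counts, against 17, 18 and 21 counts in control. All lines overlapped, and at these counts the intervals are wide: the UAU difference was 0.41 (SE 0.34, adjusted p = 0.664, edgeR). PTGS2 was called in 0 of the 12 line comparisons and interactions in which it was tested, by edgeR and by DESeq2, and had an unadjusted p under 0.05 in 0, with log2 fold changes from -0.33 to 0.65.

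The constitutive cyclooxygenase PTGS1 was lower still. It had 14, 12 and 17 counts in isoswitch total RNA, against 9, 6 and 7 counts in control. The groups did not overlap, and the log2 fold change of 0.91 did not pass (SE 0.39, adjusted p = 0.247, edgeR).

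The reductases PTGR1 and PTGR2 complete the breakdown of prostaglandins after HPGD, and PTGR1 is also known to inactivate leukotriene B4. In total RNA PTGR1 had 34.8, 34.2 and 32.9 CPM in isoswitch cells, against 40.2, 41.1 and 37.6 CPM in control. The groups did not overlap, but the difference did not pass (-0.23, SE 0.11, adjusted p = 0.342, edgeR). On heavy polysomes PTGR1 had 30.3, 29.6 and 40.0 CPM in UAU cells and 29, 33 and 34.9 CPM in GAUi cells. It had 44.1, 38.9 and 38.7 CPM in isoswitch cells, against 37.1, 37.5 and 39.4 CPM in control. UAU replicate C again stood above the other UAU libraries, and the GAUi libraries all lay below the control libraries.

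The effect of tRNAIleUAU on PTGR1 in the high fraction differed with the interference target, by 0.49 on the log2 scale (SE 0.16, adjusted p = 0.0216, edgeR). This call was lost on leaving out UAU replicate A or B, GAUi replicate A or isoswitch replicate A, with adjusted p between 0.0649 and 0.0735. None of the single differences passed: UAU against control was -0.17 (SE 0.12, adjusted p = 0.297, edgeR) and isoswitch against GAUi was 0.32 (SE 0.12, adjusted p = 0.0617, edgeR). Without UAU replicate C both passed (-0.33, adjusted p = 0.0318, and 0.32, adjusted p = 0.025, edgeR), as did isoswitch against UAU (0.42, adjusted p = 0.00441, edgeR). PTGR1 shares 28415 bases with ZNF483 on chromosome 9, and the strand setting of the counting is not given in the sources used here, so its counts are uncertain to that extent.

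PTGR2 stayed between 3.10 and 12 CPM in all 36 libraries, with 22 to 93 counts per library. Its largest difference in size was 0.64, isoswitch against GAUi in the low fraction (SE 0.25, adjusted p = 0.609, edgeR), where the groups did not overlap. PTGR2 was called in 0 of 18 line comparisons and interactions, by edgeR and by DESeq2, and that difference alone had an unadjusted p under 0.05.

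PTGDR2, also called CRTH2, is a receptor for PGD2 best known from T helper 2 cells and eosinophils. Its symbol had 42.1, 40.9 and 39.0 CPM in UAU total RNA and 74.4, 67.7 and 65.1 CPM in GAUi total RNA. It had 45.6, 48.0 and 43.7 CPM in isoswitch total RNA, against 51.2, 39.9 and 51.3 CPM in control. The GAUi libraries lay above all others. PTGDR2 rose in GAUi relative to control cells (0.52, SE 0.10, adjusted p = 0.00344, edgeR), higher in 3 of 3 libraries, and by 0.47 without GAUi replicate A (adjusted p = 0.00217, edgeR). The adjusted p was 0.0514 in a fit on the GAUi and control libraries alone. It fell in isoswitch relative to GAUi cells (-0.58, SE 0.10, adjusted p = 0.0295, edgeR), and by 0.53 without GAUi replicate A (adjusted p = 0.00359, edgeR), but this call was lost on leaving out any UAU or any isoswitch library (adjusted p between 0.0545 and 0.268) and in a fit on those lines alone (adjusted p = 0.44).

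In total RNA of GAUi cells PTGDR2 was thus the only 1 of 7 genes called, against 10.1% of all genes, and in isoswitch relative to GAUi cells also the only 1 of 7, against 0.113%. In the other total RNA comparisons the called gene was PTGES, 1 of 7 each, beside 0.914% of all genes in UAU relative to control cells, 4.05% in isoswitch relative to control cells and 3.42% in isoswitch relative to UAU cells. Nothing is read from those 3 counts, since these libraries chose PTGES. In the total RNA interaction 0 of 7 genes were called by edgeR, 2 had an unadjusted p under 0.05 and 1 was called by DESeq2, beside 0.0243% of all genes by edgeR.

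The rise of PTGDR2 in GAUi cells was not seen in the low fraction. There the GAUi to control difference was -0.34 and did not pass (SE 0.13, adjusted p = 0.146, edgeR), with no overlap between the groups. The PTGDR2 levels in the high fraction were 26.8, 27 and 38.7 CPM in UAU cells, against 46.5, 53.3 and 57.0 CPM in control. The UAU libraries all lay below the control libraries, with replicate C nearest. PTGDR2 fell in UAU relative to control cells (-0.73, SE 0.13, adjusted p = 0.000229, edgeR), the only 1 of 6 tested genes called, against 28.7% of all genes. It rose in isoswitch relative to UAU cells (0.78, SE 0.13, adjusted p = 3.77e-05, edgeR), again the only 1 of 6, against 41.6%. The effect of tRNAIleUAU differed with the interference target by 0.78 (SE 0.19, adjusted p = 0.00163, edgeR), 1 of the 2 interactions called among 6 genes, with PTGR1, against 35.7% of all genes. These shares of the 6 genes lie under those of all genes.

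These values cannot be assigned to PTGDR2 itself. PTGDR2 (chromosome 11, 60850933 to 60855950, GRCh38.p14) shares 149 annotated bases at 60850933 to 60851081 with CCDC86, a gene for a nucleolar protein. The count of PTGDR2 divided by that of CCDC86 lay between 0.831 and 0.971 in all 36 libraries (median 0.916), with PTGDR2 below CCDC86 in 36 of 36. Over the 36 libraries, centred within each fraction, the levels had a correlation of 0.99, a description only, since the points share lines and libraries. CCDC86 itself had 0.58 in GAUi relative to control total RNA (adjusted p = 0.000991, edgeR) and -0.66 in the UAU high fraction (adjusted p = 0.000416, edgeR). Reads of the shared bases cannot be told apart by gene where strand was not used, and the plot of both counts shows no library in which they part.

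**Figure D3:**
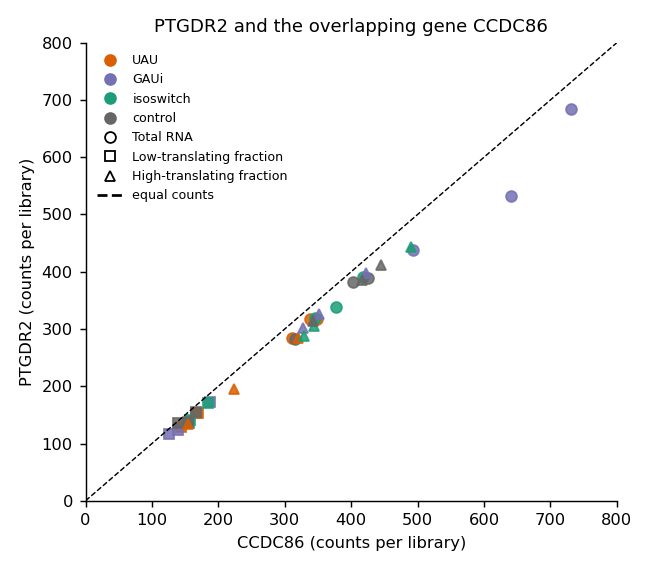
Counts per library of PTGDR2 (vertical axis) against the overlapping gene CCDC86 (horizontal axis) in all 36 libraries, coloured by line and shaped by fraction, with a dashed line of equal counts. All points lie just under the dashed line, at ratios of 0.831 to 0.971.

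In control cells, 6 of the 7 genes differed between the high and the low fraction, 5 higher and 1 lower, where 66.0% of all genes were called. The PGE2 synthases all rose in the high relative to the low fraction, PTGES3 by 1.54 (SE 0.07, adjusted p = 1.6e-10, edgeR) and PTGES2 by 0.60 (SE 0.10, adjusted p = 0.000111, edgeR) besides PTGES. PTGES3 had 819, 846 and 828 CPM in the high fraction, against 294, 268 and 282 CPM in the low fraction. PTGR1 rose by 1.24 (SE 0.11, adjusted p = 1.22e-07, edgeR), and PTGDR2, with CCDC86, by 0.99 (SE 0.12, adjusted p = 4.6e-06, edgeR). PTGS2 went the other way, with 9, 7 and 5 counts in the high fraction, against 18, 11 and 19 counts in the low fraction (-1.58, SE 0.34, adjusted p = 0.000753, edgeR). PTGR2 did not pass (0.17, SE 0.26, adjusted p = 0.588, edgeR).

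Relative to total RNA, 4 of the 7 genes were called in the high fraction of control cells, against 51.5% of all genes. PTGES is counted among them, but nothing is read from it because these total RNA libraries picked it. PTGES2 (1.13, SE 0.10, adjusted p = 4.88e-07, edgeR) and PTGES3 (0.73, SE 0.07, adjusted p = 1.08e-06, edgeR) were higher, and PTGS2 was lower (-1.39, SE 0.33, adjusted p = 0.00248, edgeR). In the low fraction relative to total RNA 5 of the 7 were called, against 62.4% of all genes. Of these PTGES2 was higher (0.53, SE 0.11, adjusted p = 0.000615, edgeR), and PTGES3, PTGR1, PTGR2 and PTGDR2 were lower, with log2 differences of -0.81, -1.33, -0.70 and -0.88 in that order. PTGR2 lost its call without control replicate A or B of total RNA or replicate C of the low fraction, with adjusted p between 0.0705 and 0.086.

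**Figure D4:**
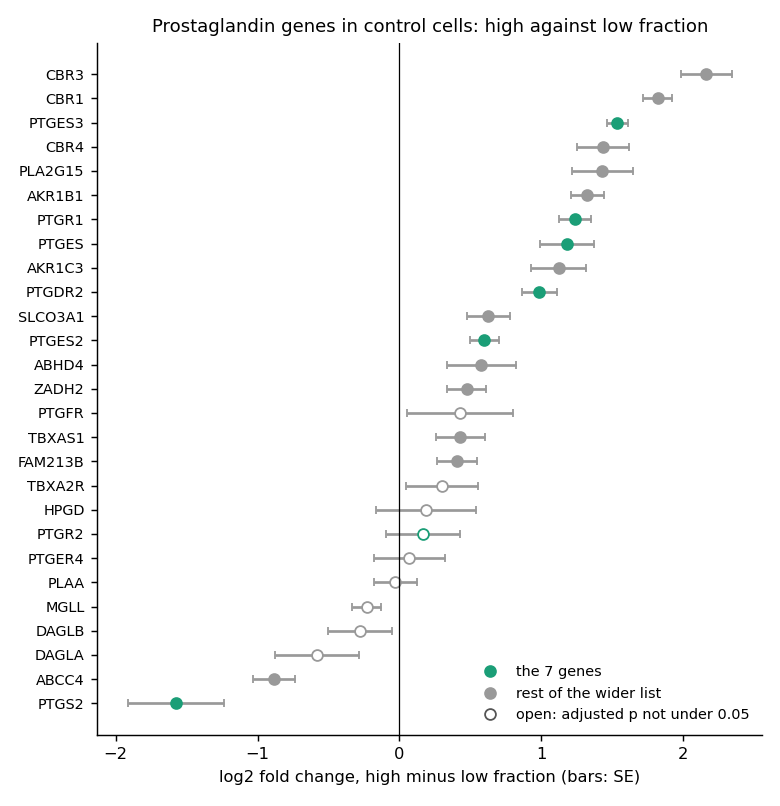
Log2 fold change between the high and the low fraction of control cells (horizontal axis, error bars SE) for the 27 genes of a wider prostaglandin list that were tested, sorted from high to low. Green points are the 7 genes and open points did not pass. PTGES3 (1.54) leads the 7 genes and PTGS2 (-1.58) is lowest of all 27.

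The wider list held 45 prostaglandin genes by role, the 7 included, chosen by function with earlier results of these data known. Of these 16 were called higher and 2 lower among 27 tested in the high relative to the low fraction of control cells, so that 18 of 27 were called, a share near the 66.0% of all genes. DESeq2 called 16. The log2 differences had a median of 0.47, against -0.00666 over all genes tested, of which 4021 were called higher and 4073 lower. By role, 3 of 3 PGE2 synthases, 5 of 5 other terminal synthases and 4 of 6 breakdown enzymes were higher and 0 were lower, although TBXAS1 among them did not pass by DESeq2 (adjusted p = 0.0691). The cyclooxygenase tested, PTGS2, was lower, as was ABCC4, a pump that exports prostaglandins (-0.88, SE 0.15, adjusted p = 8.45e-05, edgeR). Of 2 transporters tested, 1 was higher and 1, ABCC4, lower. Of 6 arachidonate release genes tested 2 were higher and 0 lower (median -0.13), and of 4 receptors 1 was higher and 0 lower. Over all genes, 4021 of 12266 were called higher. Of 45 genes, 3 (PLA2G2A, PLA2G10 and SLCO2A1) had 0 counts in all 36 libraries, which allows a level of up to 0.0122 CPM at a floor of 3 counts, for counting error only.

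Between lines, the list was counted in the same way. In total RNA relative to control, 2 of 29 list genes were called in UAU cells, MGLL higher and PTGES lower, beside 0.914% of all genes. In GAUi cells 5 were called, 1 higher and 4 lower, beside 10.1% of all genes, and DESeq2 called 3. In isoswitch cells 2 were called, both lower and PTGES among them, beside 4.05% of all genes. Nothing is read from the PTGES part of these counts. On heavy polysomes 5 of 26 were called in UAU cells, 3 in GAUi cells and 3 in isoswitch cells, each relative to control, shares under or near the 28.7%, 10.1% and 11% of all genes. The medians of the list in those high-fraction comparisons were -0.08, -0.07 and 0.05, against -0.00301, -0.00463 and -0.00453 over all genes.

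PTGFR, the receptor for PGF2α, was higher in all 3 lines on heavy polysomes. It had 5.07, 4.83 and 4.36 CPM in UAU cells and 3.36, 4.11 and 6.01 CPM in GAUi cells. It had 5.61, 3.73 and 5.47 CPM in isoswitch cells, against 1.92, 1.52 and 1.45 CPM in control. No control library, at 17, 11 and 8 counts, reached a library of another line. PTGFR rose by 1.52 in UAU cells (SE 0.29, adjusted p = 0.000395, edgeR), by 1.42 in GAUi cells (SE 0.30, adjusted p = 0.00272, edgeR) and by 1.55 in isoswitch cells (SE 0.29, adjusted p = 0.00075, edgeR). These 3 comparisons share the control libraries. In total RNA PTGFR averaged 2.21 ± 0.50 CPM in UAU, 2.95 ± 0.29 CPM in GAUi and 4.13 ± 0.48 CPM in isoswitch, against 2.57 ± 0.40 CPM in control (SD, n = 3 each), and was called in none of the total RNA comparisons with control. In the low fraction it averaged 2.21 ± 0.37 CPM in UAU, 2.55 ± 0.97 CPM in GAUi and 3.49 ± 0.33 CPM in isoswitch, against 1.21 ± 0.40 CPM in control (SD, n = 3 each). It rose there in isoswitch cells (1.52, SE 0.38, adjusted p = 0.034, edgeR), a call lost without control replicate A or C, GAUi replicate A or any isoswitch library (adjusted p between 0.051 and 0.131) and in a fit on those lines alone (adjusted p = 0.0756).

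MGLL, which hydrolyses the endocannabinoid 2-arachidonoylglycerol and so releases arachidonate, was higher in UAU cells in every fraction. On heavy polysomes it had 128, 131 and 121 CPM in UAU cells, against 82.9, 78.0 and 92.5 CPM in control. The groups did not overlap, and MGLL rose by 0.60 (SE 0.09, adjusted p = 3.17e-05, edgeR). In total RNA the difference was 0.41 (SE 0.09, adjusted p = 0.035, edgeR) and in the low fraction 0.53 (SE 0.10, adjusted p = 0.0208, edgeR). The total RNA call was lost on leaving out any control, UAU or isoswitch library (adjusted p between 0.0582 and 0.183). The low-fraction call was lost without control replicate A or C or UAU replicate B or C (adjusted p between 0.053 and 0.102), and in a fit on the UAU and control lines alone (0.53, adjusted p = 0.251). GAUi (117 to 131 CPM) and isoswitch libraries (116 to 137 CPM) also lay above control (87.3 to 106 CPM) in the low fraction, without passing. Isoswitch lay above control in total RNA as well (54.7 to 58.9 against 47.3 to 53.1 CPM), while on heavy polysomes both lines overlapped control.

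AKR1B1, an aldo-keto reductase that can make PGF2α from PGH2, was lower where Ile GAU was targeted. High-fraction levels were 121, 125 and 121 CPM in GAUi cells and 150, 145 and 140 CPM in isoswitch cells, against 173, 198 and 185 CPM in control. No library of either line reached the control range. AKR1B1 fell by 0.59 in GAUi cells (SE 0.09, adjusted p = 7.85e-05, edgeR) and by 0.36 in isoswitch cells (SE 0.09, adjusted p = 0.00739, edgeR). The isoswitch call was lost without control replicate B or isoswitch replicate C (adjusted p = 0.0573 and 0.0516). In total RNA AKR1B1 averaged 108 ± 17.4 CPM in GAUi and 104 ± 5.67 CPM in isoswitch, against 135 ± 2.07 CPM in control (SD, n = 3 each). GAUi replicate A, at 128 CPM, lay above the other GAUi libraries, at 96.6 and 100.2 CPM, and the GAUi difference was -0.33 (adjusted p = 0.0459, edgeR), or -0.47 without it (adjusted p = 0.000238, edgeR). That call was lost without any control or isoswitch library, UAU replicate A or B, or GAUi replicate B or C (adjusted p between 0.0519 and 0.126), and in a fit on the GAUi and control lines alone (adjusted p = 0.149).

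**Figure D5:**
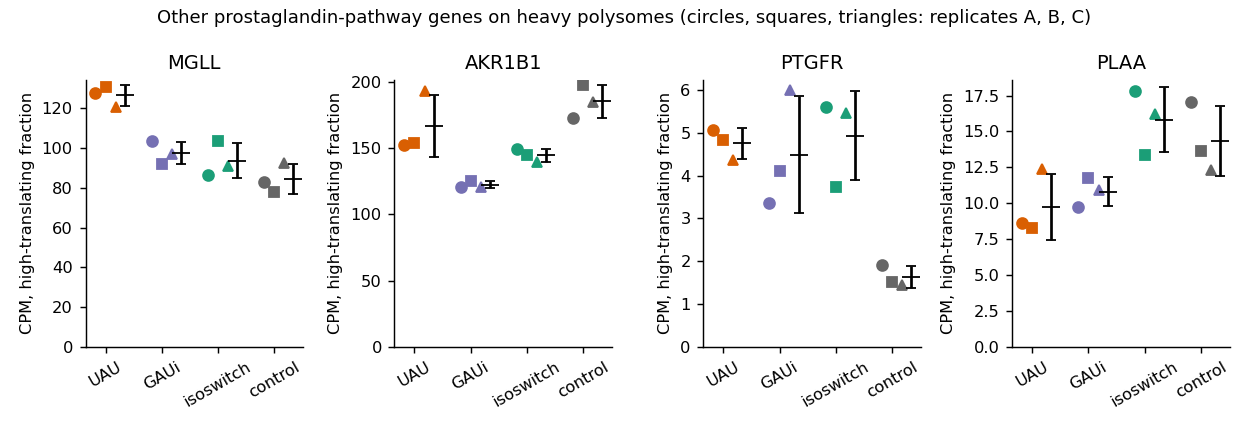
Levels in CPM (vertical axes, starting at 0 and scaled separately) of MGLL, AKR1B1, PTGFR and PLAA in each high-fraction library of the UAU, GAUi, isoswitch and control lines (horizontal axes). Circles, squares and triangles are replicates A, B and C, and bars give the mean ± SD. PTGFR is below 2 CPM in all 3 control libraries and above 3 CPM in the other 9, and MGLL is highest in the UAU libraries.

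PLAA, an activator of phospholipase A2 also known for binding ubiquitin, had 8.63, 8.26 and 12.4 CPM in UAU cells and 9.76, 11.8 and 10.9 CPM in GAUi cells in the high fraction. It had 17.8, 13.4 and 16.2 CPM in isoswitch cells, against 17, 13.7 and 12.3 CPM in control. UAU and control overlapped at UAU replicate C, while every isoswitch library lay above every UAU and GAUi library. PLAA rose in isoswitch relative to UAU cells (0.66, SE 0.17, adjusted p = 0.00305, edgeR). It fell in UAU relative to control cells (-0.54, SE 0.17, adjusted p = 0.0184, edgeR), a call lost without control replicate A or UAU replicate A or B (adjusted p between 0.0825 and 0.163).

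Further list genes were called in 1 or 2 comparisons between lines. On heavy polysomes of UAU relative to control cells, ZADH2, a prostaglandin reductase, rose by 0.49 (SE 0.14, adjusted p = 0.0106, edgeR), a call lost without control or UAU replicate A. HPGD, the dehydrogenase that inactivates PGE2, fell in GAUi relative to control total RNA (-1.43, SE 0.33, adjusted p = 0.00998, edgeR), at 1.12 ± 0.33 CPM in GAUi, against 2.93 ± 0.63 CPM in control (SD, n = 3 each), a call lost without control replicate A (adjusted p = 0.0636). TBXAS1, the thromboxane synthase, fell there by 0.53 (SE 0.13, adjusted p = 0.0143, edgeR), also lost without control replicate A (adjusted p = 0.0757). CBR4 fell there by 0.46 (adjusted p = 0.0403, edgeR), lost without any control or isoswitch library or GAUi replicate A or C. CBR1, which can convert PGE2 to PGF2α, rose in isoswitch relative to UAU cells in the high fraction by 0.29 (adjusted p = 0.0117, edgeR), lost without UAU or isoswitch replicate A. AKR1C3, a PGF2α synthase with near-identical paralogs that make its counts uncertain, fell in isoswitch relative to UAU total RNA (-0.64, SE 0.12, adjusted p = 0.00341, edgeR). It also fell in GAUi relative to control cells in the high fraction (-0.69, SE 0.18, adjusted p = 0.0133, edgeR), at 11.1 ± 2.06 CPM in GAUi, against 18 ± 3.62 CPM in control (SD, n = 3 each). That call was lost without control replicate B or GAUi replicate A or C (adjusted p between 0.0665 and 0.103).

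The genes whose levels moved most like PTGES over the 36 libraries, each centred within its fraction, were REEP4 (Pearson r = 0.80), ATP5O (0.79), SNRPC (0.78), TSPAN9 (0.78) and MRPL27 (0.78), among 8859 genes. Ranked by Spearman's rho, 2 of these 5, SNRPC and REEP4, stayed among the first 5. The points share lines, libraries and sequencing depth, so the values are a description. REEP4, an endoplasmic reticulum protein, averaged 31.6 ± 7.80 CPM in UAU total RNA, against 45.8 ± 3.38 CPM in control, and 96.5 ± 7.75 CPM in the UAU high fraction, against 123 ± 9.25 CPM in control (SD, n = 3 each). TSPAN9 was also lower in the UAU high fraction, at a mean of 31.5 against 46.0 CPM in control. Unlike PTGES, the other genes had higher means there in UAU than in control cells. These were 480 against 431 CPM for ATP5O, 652 against 641 CPM for SNRPC and 239 against 212 CPM for MRPL27. Among the 7 genes themselves, PTGES had correlations over the 36 libraries from -0.19 with PTGS2 to 0.32 with PTGDR2, whose counts cannot be told apart from those of CCDC86.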

How the data were processed

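Per the labels, 500 ng RNA went into each Lexogen QuantSeq 3′ mRNA-Seq library, a kit that reads the 3′ ends of polyadenylated RNA. The deposited files hold raw counts per gene symbol, made by the authors. Alignment with STAR, counting with featureCounts, DESeq2 and the build hg38 are listed in the submitters' processing notes; for their versions, the annotation and the strand setting, the entry is not given in the sources used here. Counts were tested with edgeR 4.0.16 (R 4.3.3; filterByExpr, TMM, glmQLFit and glmQLFTest, Benjamini-Hochberg over all genes tested, called at an adjusted p under 0.05), with DESeq2 1.42.0 as an alternative. Each SE was obtained as the log2 difference over the root of its F statistic. Within a fraction, 1 fit covered the 12 libraries of all 4 lines; control cells had a fit of 9 libraries, and the high minus total differences a fit of 24. CPM used TMM factors over all 36 libraries. The tests were also run on simulated counts drawn with the spread that edgeR estimated from these data. That run cannot speak to outlying libraries or to replicates that are not independent. Of 26485 symbols, 23758 matched RefSeq (GRCh38.p14), the source of positions.

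The 7 genes and the wider list were chosen with earlier results of these data known. All 7 are named, though not each with a value in every comparison. Of the wider list, genes called in at least 1 line comparison are named, up to 12. PTGS1 and ABCC4 were named after their values were seen. The genes most like PTGES are the 5 highest correlations of log2 CPM (prior count 2) among genes with a mean of at least 3. Codon content was not analysed here.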

Additional observations from a re-analysis of the deposited data

Results flagged for a closer look

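Each result here is an interaction that passed in a fit over the 12 libraries of a fraction (edgeR). It asks whether the effect of tRNAIleUAU differed with the CRISPR interference target (isoswitch minus GAUi, less UAU minus control, log2 scale). In the low-translating fraction, PTGES differed by 1.51 (adjusted p = 0.0364), with a difference of 0.50 between isoswitch and GAUi cells and of -1.02 between UAU and control cells. This call was lost on leaving out UAU replicate B or C, any GAUi library, or isoswitch replicate A or C, with adjusted p between 0.054 and 0.164. It holds the UAU and control lines on which PTGES was picked, so it is not free of that choice. In the low fraction 0.233% of all genes tested had such a difference, and 0 genes with the replicate block.

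In the high-translating fraction, PTGR1 differed by 0.49 (adjusted p = 0.0216) and PTGDR2, whose counts cannot be told apart from those of CCDC86, by 0.78 (adjusted p = 0.00163). PLAA differed by 1.08 (adjusted p = 0.000992) and AKR1B1 by 0.37 (adjusted p = 0.0233). MGLL differed by -0.67 (adjusted p = 0.000216) and PTGFR by -1.38 (adjusted p = 0.00625). In the high fraction 35.7% of all genes tested had such a difference by the same test. The PTGR1 call was lost on leaving out UAU replicate A or B, GAUi replicate A or isoswitch replicate A, with adjusted p between 0.0649 and 0.0735. The AKR1B1 call was lost on leaving out control replicate B, UAU replicate A or B, GAUi replicate A or isoswitch replicate A, with adjusted p between 0.0506 and 0.0734.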

How the results depend on the processing

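Alternatives were RLE size factors, no filter on low counts, DESeq2, a replicate block, a fit on the compared lines alone, the low fraction in place of total RNA, and leaving out each library in turn. The PTGES isoswitch value of the high minus total difference was 0.13 and was not tested. It turned negative and passed with the low fraction in place of total RNA and without control replicate B of that fraction. That setting was chosen after the data were seen. No other result reversed, where a difference that passes in neither setting counts as unchanged whatever its sign. Where calls changed, the cause was not tested. For PTGES in the low fraction, the replicate block gave -0.99 (adjusted p = 0.0647) for UAU against control and 1.52 (0.0687) for the interaction, and the fit on the UAU and control libraries alone gave -1.02. The GAUi difference without the filter was -0.40 (0.0412), and isoswitch against GAUi was 0.50 without the filter (0.0392) and 0.50 on those lines alone (0.0406). In the high fraction, UAU against control was -0.29 without the filter (0.014) and -0.31 with the replicate block (0.0461).

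Leaving out each library in turn, PTGES ranged in the low fraction from -1.20 to -0.63 for UAU against control, from -0.095 to 0.48 for isoswitch against control and from 1.13 to 1.70 for the interaction. In the high fraction it ranged from -0.49 to -0.17 for UAU and from -0.57 to -0.35 for isoswitch against control, and from -0.38 to -0.17 for isoswitch against GAUi. In control cells the low to total difference ranged from -0.52 to 0.033.

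The letters gave no clear pairing of the libraries: deviations of same-letter libraries had correlations from -0.49 to 0.33 between lines of a fraction (8 of 54 over 0.1) and from -0.34 to 0.20 between fractions of a line (6 of 36 over 0.1). Libraries of different letters were not compared in this way, so pairing was not tested.

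Counts of all genes called moved by over 1.5 times as follows. In total RNA they were, for UAU against control, 113, but 236 without the filter, 187 by DESeq2 and 916 on those lines alone. They were 1248 and 329 (lines alone) for GAUi and 500 and 1898 (lines alone) for isoswitch against control, and 423 and 1358 (lines alone) for isoswitch against UAU. For isoswitch against GAUi they were 14, but 276 without the filter, 148 by DESeq2 and 0 on those lines alone, and for the interaction 3, 95 without the filter and 43 by DESeq2. In the low fraction UAU against control had 86, but 339 without the filter, 183 by DESeq2, 22 with the replicate block and 0 on those lines alone. GAUi had 423, but 743 without the filter and 271 on those lines alone, and isoswitch 321, 538 and 105. Isoswitch against GAUi had 0, but 29 without the filter, 44 by DESeq2 and 56 on those lines alone, isoswitch against UAU 529 and 339 (replicate block), and the interaction 29, but 251 without the filter, 213 by DESeq2 and 0 with the replicate block. For the high minus total difference, GAUi had 90, but 278 without the filter, 238 by DESeq2 and 25 with the low fraction in place of total RNA, and isoswitch 0, but 18 without the filter and 1 with the low fraction. With the low fraction in place of total RNA and without control replicate B of that fraction, chosen after the data were seen, GAUi had 190 and isoswitch 469.

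Leaving out each library in turn, the counts ranged in total RNA from 25 to 569 for UAU, 531 to 2134 for GAUi and 194 to 995 for isoswitch against control, 0 to 642 for isoswitch against GAUi, 171 to 987 for isoswitch against UAU and 2 to 76 for the interaction. In the low fraction the same comparisons ranged from 6 to 209, 177 to 760, 127 to 675, 0 to 7, 201 to 946 and 0 to 167. In the high fraction they ranged from 563 to 1690 for GAUi and 651 to 1717 for isoswitch against control, and from 772 to 2352 for isoswitch against GAUi. The high minus total counts ranged from 457 to 1442 for UAU and from 0 to 362 for GAUi. Among the 7 genes, depth limits PTGS2 most, at 5 to 35 counts per library.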
